A study of Mus musculus with 14 samples.

Results

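The regions described here are 2774 weak DMC1 peaks of *Hells* cKO testes that lie at the starts of protein-coding genes whose nearby coding starts all face the same way. They were taken from the 17117 peaks of the *Hells* cKO list, of which 16321 were autosomal. Peaks were selected on their strength, which had to be below 31. Every *Hells* CTRL peak center had to lie 400 bp or more from the peak's own center. Within 1 kb, 1 or more transcript starts of protein-coding genes in GENCODE M21 (coding starts here) had to lie, all on 1 strand. All transcripts of such a gene were counted, also those not annotated as coding themselves. The center is the integer midpoint of the deposited interval. The same conditions with a strength of 31 or more gave 5019 peaks (called strong peaks here), and 965 autosomal peaks without a *Hells* CTRL partner had coding starts on both strands. Of the 99 autosomal peaks at coding starts on 1 strand that did have a *Hells* CTRL center closer than 400 bp, 36 were below the strength threshold and were left out.

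DMC1 ChIP-SSDS (immunoprecipitation of the strand exchange protein DMC1 followed by sequencing of the single-strand DNA it holds) was performed on whole testes of *Hells* CTRL mice, genotype Hellsfl/Δ, and *Hells* cKO mice, genotype Hellsfl/Δ;Stra8-iCre. Each genotype had 2 replicates, merged by the authors into 1 peak list per genotype. *Hells* CTRL mice were 5 weeks old, with 2 testes per replicate, and *Hells* cKO mice were 9 weeks old, with 3 testes per replicate, so that age and genotype cannot be told apart. Both genotypes carry a deleted *Hells* allele and express the PRDM9 Dom2 variant. The Cre is driven by the *Stra8* promoter, which is active in male germ cells before meiosis, and by the study's account some *Hells* cKO spermatocytes still held HELLS. The *Hells* CTRL list held 11133 peaks.

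Meiotic recombination starts with programmed DNA double-strand breaks (DSBs), whose ends are resected into single-strand DNA that DMC1 coats. In mice the breaks are normally placed away from promoters by PRDM9, a zinc finger protein that binds its own DNA motif and methylates nearby histones, while HELLS is a chromatin remodeler of the SNF2 family. When PRDM9 does not act, breaks form at other open and H3K4me3-marked chromatin, mostly promoters. Mammalian promoters fall into CpG-rich ones, common at housekeeping and developmental genes, and CpG-poor ones, common at tissue-restricted genes and more often with a TATA box.

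The promoters of 4 members show the range of CpG content among the weak peaks. For each, the 150 bases before the nearest coding start are given in the direction of transcription from GRCm38 (mm10), with CpG dinucleotides in capitals. None of these windows holds an annotated exon. The first pair has the most CpG around the peak center among members within 250 bp of a start, and the second pair the fewest among those with no exon in the window.
Scn8a, plus strand, chr15:100870754-100870903: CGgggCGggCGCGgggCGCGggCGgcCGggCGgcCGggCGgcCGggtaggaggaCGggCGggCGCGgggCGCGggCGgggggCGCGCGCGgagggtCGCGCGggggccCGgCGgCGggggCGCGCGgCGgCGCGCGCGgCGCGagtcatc
Wtip, minus strand, chr7:34133269-34133418: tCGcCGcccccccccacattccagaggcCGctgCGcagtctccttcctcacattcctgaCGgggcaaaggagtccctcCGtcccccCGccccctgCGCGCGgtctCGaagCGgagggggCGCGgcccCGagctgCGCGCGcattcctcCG
Bend6, minus strand, chr1:33883843-33883992: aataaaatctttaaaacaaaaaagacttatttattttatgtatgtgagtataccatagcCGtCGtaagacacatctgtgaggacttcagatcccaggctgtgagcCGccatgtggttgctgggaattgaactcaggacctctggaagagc
Dcun1d4, plus strand, chr5:73480850-73480999: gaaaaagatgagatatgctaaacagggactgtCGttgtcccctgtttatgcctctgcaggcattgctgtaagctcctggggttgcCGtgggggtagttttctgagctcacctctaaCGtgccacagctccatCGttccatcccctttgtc
The windows held 39 CpG at *Scn8a* (a voltage-gated sodium channel) and 19 at *Wtip* (a LIM domain protein), against 3 at *Bend6* (a BEN domain protein) and 4 at *Dcun1d4* (a neddylation factor). All 4 peaks were below the strength threshold. Their strengths were 14, 20, 18 and 28 in that order, so the peak at *Dcun1d4* was the strongest of them.

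Strength is the authors' score for each peak, a count of single-strand fragments at the peak corrected for the local background. The reads behind it are not known, and it is used here within the *Hells* cKO list only. Since it chose the members, it is given as a description. The members ranged from 6 to 30 with a median of 20 (quartiles 15 and 25). They made up 16.2% of the peaks of the *Hells* cKO list and 6.09% of its summed strength, whereas the strong peaks made up 29.3% of the peaks and 49.7% of the strength, with a median of 69. Just inside the threshold, 123 members had a strength of 30, with a median of 36 CpG within 250 bp of the center, 57.7% at high-CpG promoters and 74.8% centered downstream of the start. Just outside it, 125 peaks had a strength of 31, with 37 CpG, 62.4% at high-CpG promoters and 68.8% downstream. Members closest to their starts among those of strength 30 were at *Nfatc1* (chr18:80707143-80709202, a calcium-regulated transcription factor), *Mrps17* (chr5:129714764-129716263, a mitochondrial ribosomal protein) and *Nop53* (chr7:15945155-15946986, a ribosome biogenesis factor), with centers 0, 2 and 3 bp from a start. Their counterparts of strength 31 were at *Parp1* (chr1:180568170-180570275, a DNA damage sensor), *Zmiz2* (chr11:6388105-6390612, a transcriptional coactivator) and *Kpna6* (chr4:129671457-129673586, a nuclear import receptor). The lowest strengths were 6 at *Tmem171* (chr13:98694200-98695535) and *Serpinb6a* (chr13:33934939-33936418, a protease inhibitor) and 7 at *Il4ra* (chr7:125551481-125552830, the receptor of interleukin 4) and *Arhgef39* (chr4:43498923-43500158).

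The members were at promoters with fewer CpG than the strong peaks. The median number of CpG within 250 bp of the center was 33 (95% interval of the median 32 to 34, quartiles 22 and 46, n = 2774) at members, 46 (46 to 47, quartiles 34 and 59, n = 5019) at strong peaks and 42 (41 to 43, n = 965) where coding starts lay on both strands. The member median was below the strong median on 19 of 19 autosomes, with medians from 29 to 38 for members and from 43 to 49 for strong peaks, so the ranges over the autosomes did not overlap. The GC content of the same windows had a median of 61.7% at members and 67.1% at strong peaks, and was lower at members on 19 of 19 autosomes. With a single merged list per genotype there is no spread between replicates, and these intervals, like all intervals given for shares (exact 95% binomial) and their differences (Newcombe), cover counting error only.

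**Figure D1:**
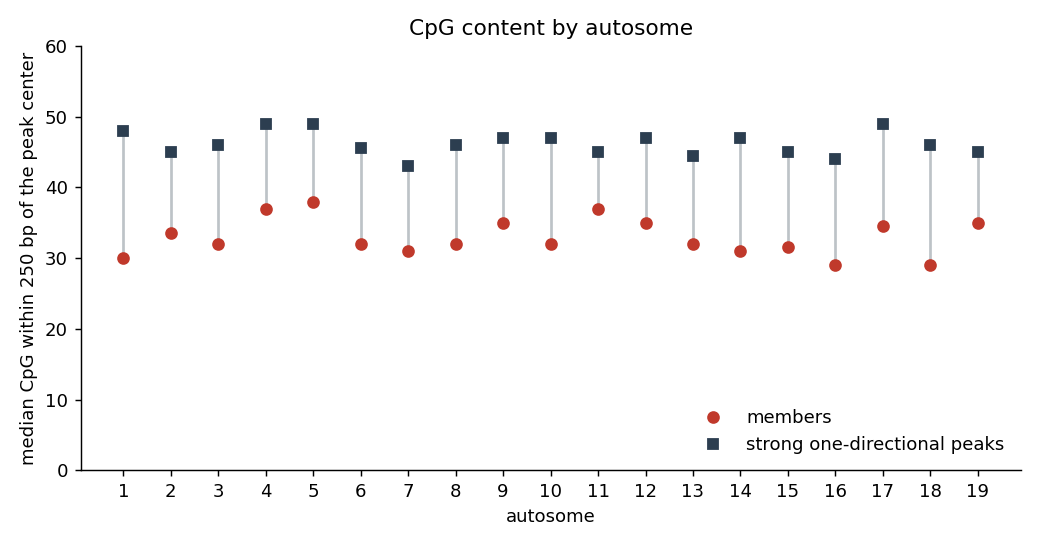
Median CpG count around the peak center (y axis, 250 bp to each side) on each of the 19 autosomes (x axis). Circles are members, squares are strong peaks at coding starts on 1 strand, and a line joins the values of an autosome. Members lie between 29 and 38, strong peaks between 43 and 49.

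The promoter class gave the same order. A promoter was called high-CpG when a window of 500 bp between 700 bp before and 200 bp after the nearest coding start had a CpG observed/expected ratio above 0.75 and more than 55% GC, low-CpG when no window had a ratio above 0.48, and intermediate otherwise. High-CpG promoters held 1405 members, or 50.6% (95% interval 48.8 to 52.5), against 76.0% of strong peaks, a difference of -25.4 percentage points (-27.6 to -23.1). Intermediate promoters held 39.1% of members (37.3 to 40.9) and 20.7% of strong peaks. Low-CpG promoters held 285 members, or 10.3% (9.17 to 11.5), and 3.29% of strong peaks, a difference of 6.99 points (5.79 to 8.26). The share of members at high-CpG promoters was below that of strong peaks, and the share at intermediate and low-CpG promoters above it, on 19 of 19 autosomes. Where coding starts lay on both strands, 83.5% of peaks were at high-CpG and 1.04% at low-CpG promoters.

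Read the other way, 26.9% (95% interval 25.7 to 28.1) of the 5220 peaks at high-CpG promoters with coding starts on 1 strand were members, against 51.1% (48.9 to 53.2) of 2123 at intermediate and 63.3% (58.7 to 67.8) of 450 at low-CpG promoters. The promoter class also shifted with strength among the members themselves. High-CpG promoters held 43.4% (38.3 to 48.6, n = 378) of members with strengths of 6 to 12 and 57.9% (53.9 to 61.9, n = 606) of those with 26 to 30, and the share went on to 87.3% (85.5 to 88.9, n = 1516) of strong peaks above 100. The share at low-CpG promoters went from 12.4% and 14.1% in the lowest 2 strength classes to 7.10% in members of 26 to 30 and 0.660% above 100. In the class just above the threshold, 31 to 50, 66.4% (64.0 to 68.7, n = 1651) of peaks were at high-CpG promoters, so the shares went up from class to class on both sides of it.

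**Figure D2:**
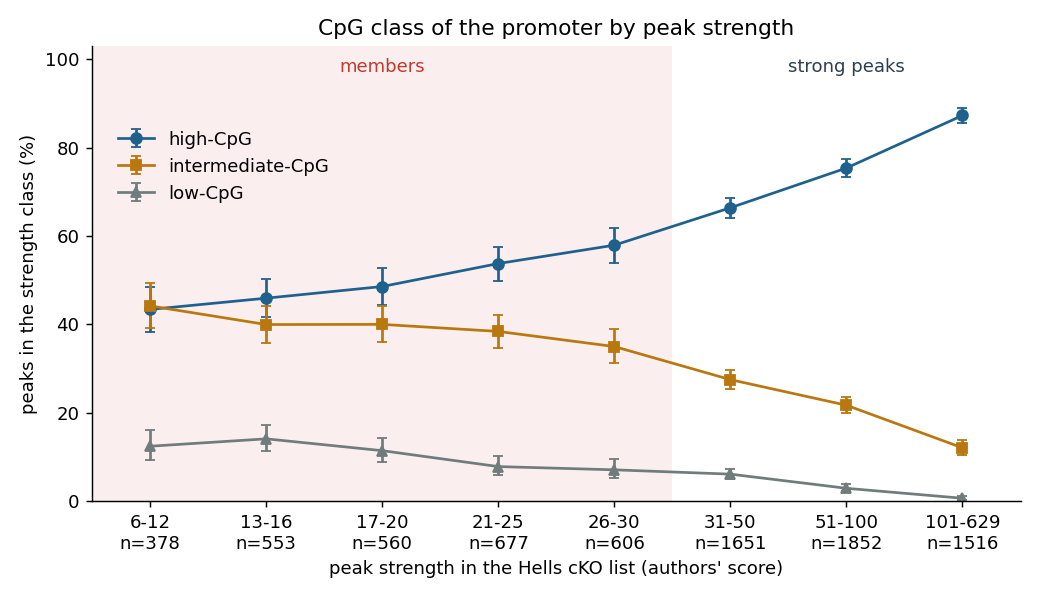
Share of peaks at high-CpG, intermediate-CpG and low-CpG promoters (y axis, percent) in 8 classes of peak strength (x axis, the authors' score, with the number of peaks under each class). Points are shares, bars exact 95% binomial intervals, and the shaded classes are the members. The high-CpG share goes from 43.4% in the weakest class to 87.3% in the strongest, and the low-CpG share from 12.4% to 0.660%.

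The low-CpG members lay farther from their starts than the other members. Their median distance to the nearest start was 281 bp (n = 285), against 154 bp at intermediate and 133 bp at high-CpG promoters. Over members and strong peaks together the medians were 292, 167 and 136 bp in that order, so the order was not particular to members. The low-CpG members had a median strength of 17, against 19 and 21. Among members within 250 bp of a start, the fewest CpG within 250 bp of the center were 5 at *Bend6*, 7 at *Iqcm* (chr8:75448265-75449732, an IQ motif protein) and 7 at *Esr1* (chr10:4611282-4612805, the estrogen receptor alpha). The center at *Bend6* was within repeats for much of its surroundings, where 71.9% of the bases were masked in the assembly. Only 9 members had over 50% masked bases, 0.324% of the total. The most CpG were 101 at *Scn8a* and *Wtip* and 93 at *Strbp* (chr2:37702528-37704255, a spermatid RNA-binding protein).

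Member promoters were a mixture when set against all genes. Of 20807 autosomal protein-coding genes, 2743 (13.2%) had a member within 1 kb of a start, 4954 (23.8%) had a strong peak at starts on 1 strand, and 11329 had no *Hells* cKO peak within 1 kb of a start. By the class of their outermost start, 15.9% (95% interval 15.1 to 16.8) of high-CpG, 20.9% (19.8 to 22.1) of intermediate and 6.13% (5.63 to 6.66) of low-CpG genes had a member. Members were thus most frequent at genes of the intermediate class, while strong peaks were most frequent at high-CpG genes, with 41.9% (40.8 to 43.1) of those, 27.3% of intermediate and 6.23% of low-CpG genes. The shares of low-CpG genes with a member and with a strong peak lay within each other's intervals. The class here is that of the outermost start, which need not be the start nearest the peak. Thus 518 low-CpG genes had a member and 526 a strong peak, while 285 members and 165 strong peaks lay at low-CpG promoters. Of all 90265 distinct coding starts, 33.0% were high-CpG, 20.5% intermediate and 46.4% low-CpG.

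Member centers lay mostly downstream of the start. The center was on the transcribed side at 1944 members, or 70.1% (95% interval 68.3 to 71.8), at 72.7% of strong peaks and at 64.0% where starts lay on both strands. The difference to the strong peaks was -2.60 points (-4.72 to -0.514), and members had the lower share on 11 autosomes and the higher on 8. The median signed distance was 87 bp (77 to 98) at members and 102 bp (96 to 110) at strong peaks, with quartiles at -22 and 254 bp for members. The bin from the start to 100 bp downstream held 633 members, 22.8% of them, and the bin of the same size upstream held 396, or 14.3%. A center within 250 bp of a start was found at 68.1% of members and 71.5% of strong peaks, and within 500 bp at 91.4% and 93.9%.

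**Figure D3:**
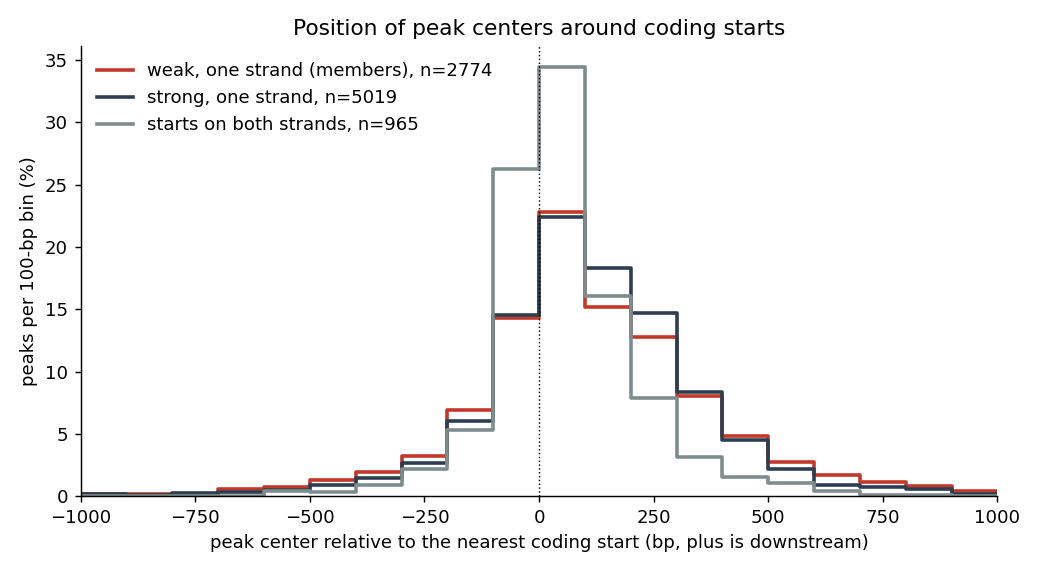
Share of peaks (y axis, percent) in bins of 100 bp by the signed distance of the center from the nearest coding start (x axis, bp, plus is downstream). Lines are members, strong peaks at starts on 1 strand, and peaks with starts on both strands. The bin from 0 to 100 bp holds 22.8% of members, 22.4% of strong peaks and 34.4% of peaks with starts on both strands.

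By annotation, 783 member centers (28.2%) fell in a UTR of a coding gene, 480 (17.3%) in coding sequence, 136 (4.90%) in another exon, 987 (35.6%) in an intron, and 388 (14.0%) outside coding genes. The last share was 10.5% at strong peaks, a difference of 3.47 points (95% interval 1.95 to 5.04), with members higher on 17 of 19 autosomes. The shares in introns (35.6% and 35.8%) and in coding sequence (17.3% and 18.4%) differed from strong peaks by intervals that held 0. The number of annotated coding starts within 1 kb had a median of 2 at members and 3 at strong peaks.

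Although their coding starts faced 1 way, 331 members had the start of a gene of another type (long noncoding RNA, small RNA or pseudogene) within 1 kb on the opposite strand. This share was 11.9% (95% interval 10.7 to 13.2), against 17.1% of strong peaks, a difference of -5.12 points (-6.69 to -3.51), and members were lower on 18 of 19 autosomes. In high-CpG promoters the share was 14.2% of members and 18.8% of strong peaks, in intermediate promoters 10.3% and 12.3%, and in low-CpG promoters 6.67% of both. Named members with such a start included those at *Serpinb6a* (1110046J04Rik), *Nop53* (Gm24576) and *Pate2* (Gm6762), and 1 member each of *Fgfr1* (Gm16159) and *Dst* (Gm26788). A noncoding start on the same strand as the gene was rare, at 1.41% of members and 2.33% of strong peaks.

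Members did not lie closer to other *Hells* cKO peaks than strong peaks did. Another center lay within 10 kb of 12.9% (95% interval 11.6 to 14.2) of members and 13.3% (12.4 to 14.3) of strong peaks, a difference of -0.460 points with an interval from -2.00 to 1.13. A center of strength 31 or more lay within 10 kb of 5.70% of members and 8.63% of strong peaks, a difference of -2.93 points (-4.07 to -1.74). The nearest *Hells* CTRL center was a median of 68903 bp away from members and 59222 bp from strong peaks, and 6 members had one within 1 kb but no closer than the 400 bp of the rule. Peak width, which comes from the same peak calls as strength and is given as a description, had a median of 1814 bp at members (quartiles 1586 and 2100) and 2190 bp at strong peaks. The widest members were at *Tmem215* (3968 bp), *Bcl2l11* (3790 bp, an apoptosis activator) and *Camta2* (3738 bp, a transcription activator). The narrowest were at *Pate2* (910 bp), *Map10* (936 bp, a microtubule-associated protein) and *Ap1m2* (942 bp, a clathrin adaptor subunit).

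Short motifs of promoter-binding factors were counted in the 300 bp from 250 bp before to 50 bp after the nearest start, on both strands. Examples were taken as the strongest eligible member that held the motif in the 150 bases before its start, with no exon in the window. The motif is in capitals, as its reverse complement where it lies on the other strand. They are shown for the motifs whose shares differed most from the background of all genes or from the strong peaks, together with the NRF1, ETS and CRE motifs.
Lrrc66 with GGGCGG, minus strand, chr5:73632527-73632676: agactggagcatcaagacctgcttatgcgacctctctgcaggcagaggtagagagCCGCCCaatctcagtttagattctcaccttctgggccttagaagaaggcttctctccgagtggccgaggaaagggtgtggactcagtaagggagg
Preb with AAGATGGC, minus strand, chr5:30960362-30960511: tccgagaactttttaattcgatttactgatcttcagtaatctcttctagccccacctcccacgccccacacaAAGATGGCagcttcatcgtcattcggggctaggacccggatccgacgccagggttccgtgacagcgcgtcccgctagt
Bbs2 with TATAAA, minus strand, chr8:94098929-94099078: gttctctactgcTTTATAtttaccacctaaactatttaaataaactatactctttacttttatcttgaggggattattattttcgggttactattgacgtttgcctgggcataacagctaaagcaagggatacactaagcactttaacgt
Slc9a8 with CCGGAAG, plus strand, chr2:167421562-167421711: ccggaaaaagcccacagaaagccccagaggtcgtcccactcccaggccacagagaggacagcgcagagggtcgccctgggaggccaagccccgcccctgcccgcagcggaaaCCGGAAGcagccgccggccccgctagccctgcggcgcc
Cherp with GCGCATGC, minus strand, chr8:72475227-72475376: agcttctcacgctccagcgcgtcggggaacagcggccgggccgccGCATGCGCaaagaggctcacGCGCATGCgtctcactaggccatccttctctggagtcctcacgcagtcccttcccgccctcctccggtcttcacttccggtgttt
Ccin with TGACGTCA, plus strand, chr4:43983333-43983482: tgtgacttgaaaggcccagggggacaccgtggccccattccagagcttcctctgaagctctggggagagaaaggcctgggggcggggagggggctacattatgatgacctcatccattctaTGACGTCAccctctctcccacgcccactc
*Cherp* encodes an endoplasmic reticulum calcium protein, *Slc9a8* a sodium/hydrogen exchanger, *Preb* a factor of vesicle budding, *Bbs2* a BBSome subunit and *Ccin* a protein of the sperm head cytoskeleton. At *Cherp* the motif occurs as 2 copies, 1 in each direction. A match is a description of the letters and not evidence of a bound factor.

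The SP/KLF box (GGGCGG) was the most frequent motif at members. It was found at 1719 members, or 62.0%, at 73.2% of strong peaks and at 43.7% of the outermost starts of all 20807 autosomal coding genes. The difference between members and strong peaks was -11.2 points (95% interval -13.4 to -9.04), with members lower on 19 of 19 autosomes. Within high-CpG promoters the shares were 77.4% and 79.9%, with a difference of -2.50 points (-5.08 to -0.0214), a smaller gap than over all promoters. All genes of that class were at 78.1%. Members and all genes were at 52.1% and 48.8% within intermediate promoters, and at 23.5% and 11.3% within low-CpG promoters. All genes had 40.6% low-CpG outermost starts against 10.3% of members, so motif shares over all classes are not matched for CpG. The YY1 motif (AAGATGGC) was found at 97 members, 3.50%, against 6.52% of strong peaks, 8.39% where coding starts lay on both strands and 2.93% of all genes. Its difference of -3.02 points (-3.97 to -2.03) was -2.13 points (-3.41 to -0.697) within high-CpG promoters, where 4.56% of members and 6.68% of strong peaks held it. Members had the lower YY1 share on 18 of 19 autosomes. Within high-CpG promoters all genes were at 4.84% for YY1. Members and all genes were at 2.68% and 3.33% within intermediate promoters, and at 1.40% and 1.07% within low-CpG promoters.

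Some of the other motifs were less frequent at members than at strong peaks, and some more frequent. The E2F motif (TTCCCGC) was found at 8.18% of members, 10.5% of strong peaks and 5.82% of all genes. The CRE (TGACGTCA) was at 2.45%, 3.71% and 2.43%, and the BANP motif (TCTCGCGA) at 1.51%, 2.33% and 1.35%, in the same order. For these motifs the interval of the difference to strong peaks lay below 0, from -3.60 to -0.944, from -2.01 to -0.446 and from -1.42 to -0.167 points, but within high-CpG promoters each interval held 0. Within intermediate promoters the CRE difference was -1.73 points (-3.25 to -0.277), and the E2F and BANP intervals held 0. Within high-CpG promoters, members and all genes were at 10.5% and 11.4% for E2F, 2.92% and 4.24% for CRE, and 2.21% and 3.28% for BANP. In intermediate promoters they were at 6.46% and 5.67%, 2.12% and 2.75%, and 0.830% and 0.852%. In low-CpG promoters they were at 3.51% and 1.18%, 1.40% and 0.686%, and 0.702% and 0.0118%. The TATA box (TATAAA), counted anywhere in the window, was at 174 members, 6.27%, against 4.5% of strong peaks and 12.7% of all genes. The MYB motif (TAACTG) was at 6.67%, 4.98% and 9.14%, and the AP-1 motif (TGANTCA) at 4.83%, 3.81% and 6.88%. For these the interval lay above 0, from 0.729 to 2.87, from 0.610 to 2.83 and from 0.0957 to 2.02 points, and within high-CpG promoters each held 0. Within high-CpG promoters members and all genes were at 3.77% and 4.67% for TATA, 3.84% and 4.48% for MYB, and 3.13% and 3.09% for AP-1. In intermediate promoters they were at 8.03% and 10.7%, 7.93% and 8.58%, and 5.35% and 5.40%. In low-CpG promoters they were at 11.9% and 20.8%, 15.8% and 13.4%, and 11.2% and 11.0%.

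For the remaining 6 motifs the interval of the difference to strong peaks held 0. The ETS motif (CCGGAAG) was at 17.3% of members and 18.1% of strong peaks, both above the 11.0% of all genes. The NRF1 motif (GCGCATGC) was at 4.47% and 5.46%, against 3.45% of all genes, and the E-box (CACGTG) at 10.3% and 10.8%, against 7.82%. Within high-CpG promoters members and all genes were at 21.6% and 20.1% for ETS. For NRF1 they were at 5.84% and 6.85%, and for the E-box at 11.9% and 11.7%. Within intermediate promoters the pairs were 14.7% and 12.5%, 3.69% and 3.76%, and 9.69% and 9.39%, in that order. Within low-CpG promoters they were 6.67% and 2.40%, 0.702% and 0.367%, and 5.26% and 3.56%. The CCAAT box was at 33.8% (32.0 to 35.6) and 33.9%, against 38.6% of the outermost starts of all genes and 34.5% of all 90265 coding starts, so its place against the background depended on which starts were counted. The RFX motif (GTTGCC) was at 11.8% and 11.6%, against 12%, and the ZNF143 motif (ACTACAATT) at 0.433% and 0.458%, against 0.524%. The shorter letters overlap in part, as GGGCGG does with other GC-rich words, so the motifs are not independent counts.

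**Figure D4:**
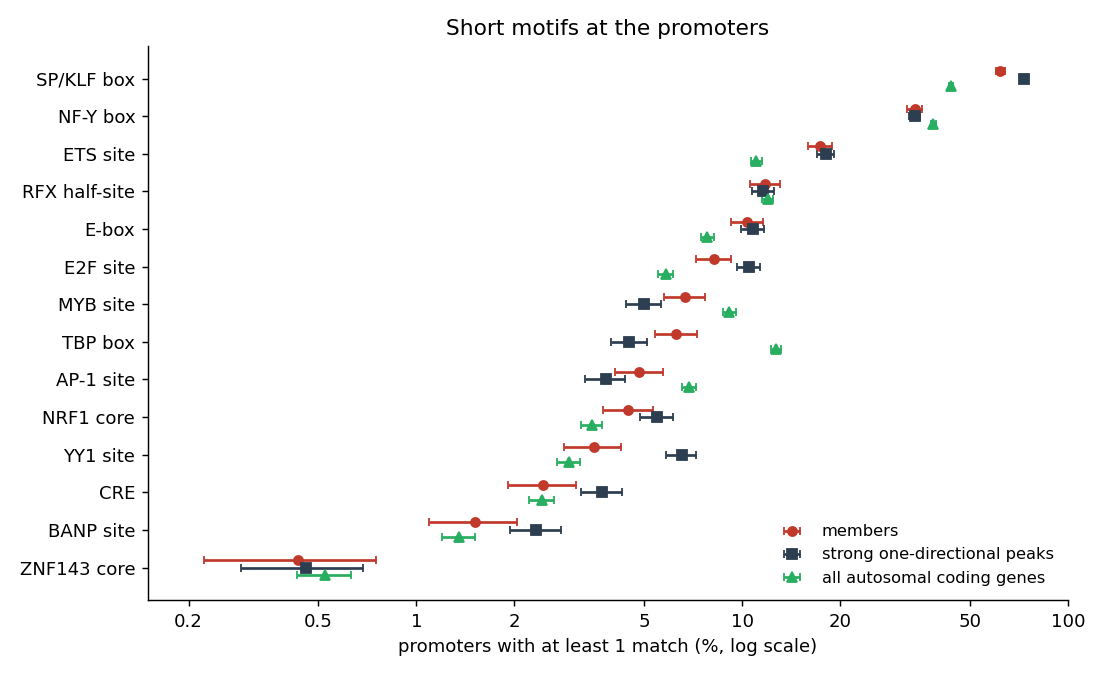
Share of promoters with at least 1 match (x axis, percent on a log scale) for 14 short motifs (y axis; the NF-Y box is the CCAAT box and the TBP box the TATA box). Circles are members, squares strong peaks at starts on 1 strand, triangles the outermost starts of all autosomal coding genes, and bars exact 95% binomial intervals. Members lie below strong peaks for the SP/KLF and YY1 motifs, and below all genes for the TBP box at 6.27% against 12.7%. The shares are not matched for CpG class.

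Genes were grouped into 32 lists of families and functions, most of them built from gene symbols that share a prefix, so that a few members of a list may not belong to the family. Each list is set against the 13.2% of all autosomal coding genes that had a member and the 23.8% that had a strong peak. The 95% interval of the member share held the background in 23 lists, lay above it in 2 and below it in 7, without correction for the number of lists. For strong peaks the interval held the background in 10, lay above it in 11 and below it in 11. Of the 4954 genes with a strong peak, 143 also had a member, so the member and strong shares of a list are not independent. The lists differ in promoter class and are not matched for CpG.

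Genes of meiosis and the germ line were at both sides of the threshold. Of 62 genes of meiotic recombination and synapsis, 9 had a member (14.5%, 95% interval 6.86 to 25.8) and 31 a strong peak. Among the 9 were *Rec8* (strength 28, the meiotic cohesin), *Rec114* (28) and *Mei1* (24), which act in break formation, and *Majin* (24), which ties telomeres to the nuclear envelope. Of 35 germ cell and piRNA genes, 8 had a member (22.9%) and 13 a strong peak. Members were at *Lin28a* (26), an RNA-binding protein of undifferentiated germ cells, *Pld6* (25) and *Tdrd7* (25) of the piRNA pathway and germ granules, and *Gfra1* (23), the GDNF receptor of spermatogonial stem cells. Of 50 genes expressed in spermatids and sperm, 4 had a member (8.00%) and 6 a strong peak, and 35 had no peak. These were *Dpy19l2* (29), needed for the acrosome, *Zpbp2* (16), *Crem* (14), a regulator of postmeiotic transcription, and *Tekt5* (11), a flagellar tektin. The center at *Crem* had 1 CpG within 250 bp.

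Translation factors were at members more often than all genes, while the intervals of the other lists of translation, respiration and protein turnover held the background. Of 44 translation factor genes, 13 had a member (29.5%, 95% interval 16.8 to 45.2), an interval above the background, and 17 a strong peak (38.6%, 24.4 to 54.5), also above its background of 23.8%. The strongest were at *Eif5a* (30), *Eif3f* (28), *Eif4e3* (27) and *Eif2d* (26). Of 39 proteasome subunits, 10 had a member (25.6%, 13 to 42.1), among them *Psmd2* (28), *Psmc1* (25) and *Psmd7* (25). Cytosolic ribosomal proteins had 13 of 86 genes with a member (15.1%) and 38 with a strong peak, and mitochondrial ribosomal proteins 14 of 78 (17.9%) and 19. The strongest members of these lists were at *Rpl8* (30), *Rps12* (29), *Mrps17* (30) and *Mrpl19* (29). Respiratory chain subunits had 15 of 87 genes with a member (17.2%), with *Ndufa12* (29) and *Cox5a* (28) at the top. Ubiquitin ligases and deubiquitinases had 40 of 288 (13.9%), close to the background, and 109 with a strong peak. Their strongest members were at *Rnf125* (30) and *Fbxo22* (29).

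Zinc finger genes were also at members more often than all genes, while other lists of transcription and chromatin held the background. Of 385 zinc finger genes of the Zfp series, 91 had a member (23.6%, 95% interval 19.5 to 28.2), the other interval above the background, and 136 a strong peak (35.3%, 30.5 to 40.3), also above its background. By outermost start, 31.4% of the 385 genes were high-CpG, against 34.6% of all genes. Intermediate genes as a class had a member at 20.9%, a share within the interval of this list. Members of strength 30 were at *Zfp628*, *Zfp930*, *Zfp638* and *Zfp3*. Subunits of RNA polymerase II, Mediator and the TAF complexes had 15 of 75 genes with a member (20%) and 26 with a strong peak, with *Med13l*, *Taf13*, *Polr2c* and *Polr2a* at 30. Splicing and RNA-binding factors had 19 of 115 (16.5%) and 55, with *Dhx32* and *Sf3b4* at 30. Histone modifiers and remodelers had 15 of 93 (16.1%) with a member but 51 (54.8%) with a strong peak. Their members included *Setd5* (29), *Prmt1* (29), *Smarcd2* (26) and *Smarca2* (26). Histone genes had 9 of 67 (13.4%) with a member and 18 with a strong peak, with *Hist1h1e* (28) and *Hist3h2ba* (27) at the top. Zinc finger and histone genes have near-identical copies, and reads that map to several places were not kept by the authors. The same limit holds for every other list with similar copies, also those below the background.

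Cyclins and their kinases were at members less often than all genes, while the interval for DNA repair genes held the background. Of 50 cyclins and cyclin-dependent kinases, 1 had a member, *Ccnd3* (23, cyclin D3), and 27 had a strong peak. The member share of 2.00% had an interval (0.0506 to 10.6) below the background. No gene of this list had both a member and a strong peak. DNA repair genes had 7 of 66 with a member (10.6%, 95% interval 4.37 to 20.6) and 30 with a strong peak (45.5%). The members were led by *Ercc2* (30, a helicase of nucleotide excision repair), *Neil3* (23), a DNA glycosylase, *Fanci* (21) of the Fanconi pathway, and *Rnf8* (20), a ubiquitin ligase of the break response. The center at *Neil3* had 8 CpG within 250 bp.

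In 5 lists more genes had a member than a strong peak, namely the developmental factors and ligands described next, G protein-coupled receptors, defensins and serpins, and olfactory receptors. The intervals of the member and strong shares overlapped in each of these 5 lists. Among 95 transcription factors of the Fox, Sox, Pax, Lhx, Tbx and Gata families, 17 had a member (17.9%, 95% interval 10.8 to 27.1) and 13 a strong peak (13.7%, 7.49 to 22.3). Members were at *Foxo3* (30), *Foxa1* (30), *Sox7* (29) and *Gata3* (27). Of 68 genes of the Wnt, Fgf, Bmp and Tgfb ligand families, 10 had a member (14.7%, 7.28 to 25.4) and 3 a strong peak (4.41%, 0.919 to 12.4). The strongest were at *Fgf12* (30), *Bmp1* (27, a protease that shares the prefix), *Fgf20* (25) and *Inhba* (20). Semaphorins, ephrins and Eph receptors, which guide axons and cell sorting, had 10 of 41 genes with a member (24.4%) and 10 with a strong peak. These included *Epha5* (29), *Epha4* (28), *Sema4b* (26) and *Sema3a* (25). Hox genes, which lie in Polycomb-bound clusters in many tissues, had 2 of 39 with a member, at *Hoxa13* (19) and *Hoxd13* (12), and 2 with a strong peak.

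For genes of neurons and membranes the interval of the member share held the background or lay below it. Calcium and sodium channels had 5 of 39 genes with a member (12.8%), among them *Cacna1d* (29), *Scn1a* (26) and *Scn9a* (22). Glutamate and GABA receptors had 4 of 40 (10%), led by *Gria2* (27), a subunit of AMPA receptors. Pore-forming potassium channel subunits had 4 of 80 (5.00%, 95% interval 1.38 to 12.3), *Kcnt2* (28), *Kcng3* (18), *Kcnv1* (15) and *Kcng1* (12). Cadherins and protocadherins had 6 of 90 (6.67%), led by *Cdh12* (26). Solute carriers, the largest family of membrane transporters, had 58 of 358 (16.2%, 12.5 to 20.4) with a member and 79 with a strong peak, with *Slc9a8* (30) and *Slc35b1* (29) at the top. G protein-coupled receptors had 11 of 96 (11.5%) with a member and 9 with a strong peak, led by *Chrm5* (28), a muscarinic receptor. Rab and Arf GTPases of vesicle traffic had 15 of 83 (18.1%) and 32, led by *Arf1* (27).

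Several families of immune, metabolic, structural and sensory genes were at members less often than all genes. Chemokines, interleukins, interferons and their receptors had 10 of 154 genes with a member (6.49%, 95% interval 3.16 to 11.6), led by *Cxcl2* (28) and *Il6ra* (26). Cytochrome P450 genes had 5 of 100 (5.00%, 1.64 to 11.3), led by *Cyp1b1* (26). Defensins and serpins had 2 of 124, *Serpine2* (18) and *Serpinb6a* (6). Olfactory, vomeronasal and trace amine receptors had 8 of 1472 (0.543%, 0.235 to 1.07), led by *Olfr279* (24) and *Olfr315* (22), whose centers lay 637 and 409 bp downstream of a start. Keratins and keratin-associated proteins had 0 of 113, an interval up to 3.21%. All these intervals lay below the background, and the same families had strong peaks at 10, 6, 0, 3 and 2 genes. By outermost start, 8.44%, 7%, 0.806%, 0.0679% and 0% of their genes were high-CpG in the same order, against 34.6% of all genes. Low-CpG genes as a class had a member at 6.13%. That share lay within the intervals of the chemokine and cytochrome P450 lists and above those of the others.

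**Figure D5:**
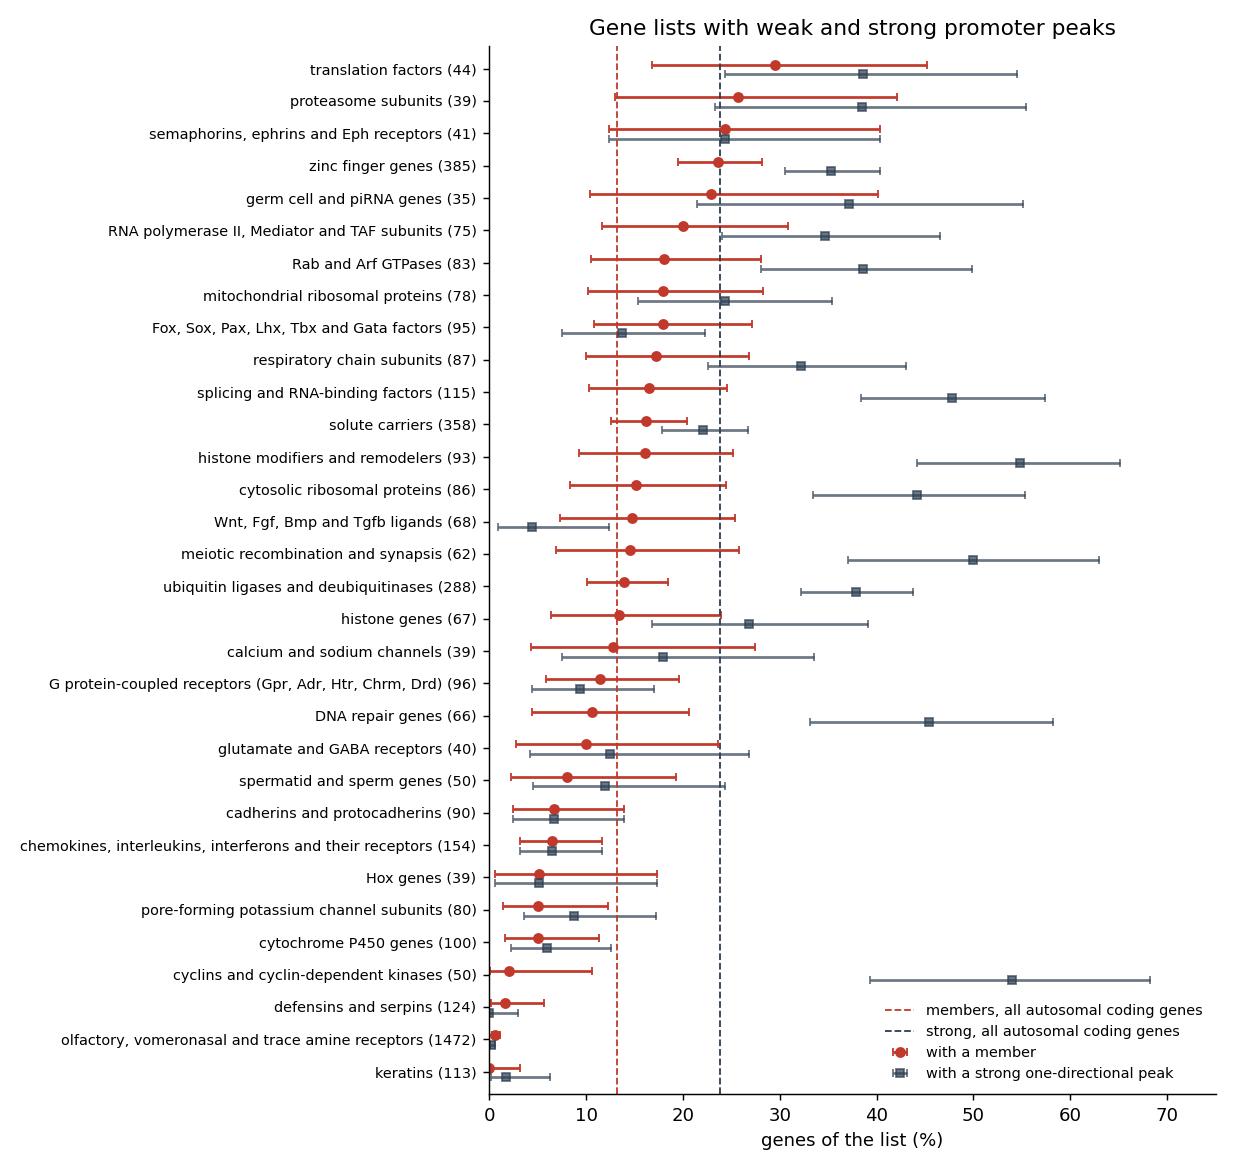
Share of genes (x axis, percent) with a member (circles) or a strong peak at starts on 1 strand (squares) in 32 gene lists (y axis, with the number of genes), ordered by the member share. Bars are exact 95% binomial intervals and dashed lines the shares of all autosomal coding genes, 13.2% and 23.8%. Translation factors (29.5%) and zinc finger genes (23.6%) lie above the line for members, and cyclins and cyclin-dependent kinases are at 2.00% for members and 54.0% for strong peaks.

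Several starts of a gene could each carry a member. By symbol, 2668 genes had 1 member, 67 had 2 and 6 had 3, while 44 members lay near starts of 2 or more genes. The 4 genes described here are among the 6. At *Scn8a* (chr15:100870016-100871709, chr15:100935653-100937096 and chr15:101015526-101017323) the members had strengths of 14, 12 and 13 and held 101, 29 and 17 CpG within 250 bp of the center. Their promoters were high-CpG, intermediate and intermediate, so peaks of nearly equal strength differed widely in CpG. At *Syne1*, a giant protein of the nuclear envelope, the strengths were 11, 14 and 18 with 10, 13 and 30 CpG. At *Fgfr1*, a receptor of fibroblast growth factors, they were 15, 22 and 14 with 13, 60 and 23 CpG. At *Dst*, a cytoskeletal linker, they were 23, 22 and 16 with 9, 27 and 28 CpG. The strongest of the 3 members had the most CpG at *Scn8a*, *Syne1* and *Fgfr1*, but the fewest at *Dst*.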

How the data were processed

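DMC1 ChIP-SSDS peak lists of *Hells* CTRL and *Hells* cKO testes were used as deposited. The authors trimmed reads to 50 bp, kept a Phred score above 28 and unique, non-duplicated reads on GRCm38/mm10, called peaks with MACS and the Irreproducible Discovery Rate method, and merged the 2 replicates. The deposited strength is the authors' score, a background-corrected fragment count; all values are whole numbers, so the read depth behind them and whether the library-size step is included are unknown. By the authors' account, strengths are not comparable between genotypes. The deposited start and end give the center and width. The 5hMeDIP libraries were not analysed here.

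Starts came from GENCODE M21 and sequence from GRCm38.p6. The members, gene lists and motifs were chosen with earlier results of these data known, and the members were selected on strength. Named peaks are the 3 of highest and 4 of lowest strength, the 3 just outside, those with the most and fewest CpG, the widest and narrowest, genes with the most members, and up to 4 of the strongest members per list. Ties went to the smaller distance. Sequences are shown for 6 of 14 motifs, none from chromosome 18. Some prefixed symbols from outside a family were removed from the lists. Shares carry exact 95% binomial intervals and differences Newcombe intervals. A single list per genotype allows no test between mice. The code was tested on simulated peaks. Alternatives were the strength threshold, the reach, the partner distance, the set of starts, the CpG window and the motif window. Software: scipy 1.17.1 for intervals, matplotlib 3.10.9 for plots, pandas 2.3.3 for tables, with numpy 2.4.6 under Python 3.11.15.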

Additional observations from a re-analysis of the deposited data

How the results depend on the processing

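Of 119 values recomputed under alternatives, 85 stayed within their own 95% interval (for the count of members, within 1.5 times) and 34 did not. With a strength threshold of 20 there were 1355 members at 6.51% of genes, with 46.1% at high-CpG and 12.8% at low-CpG promoters and a median width of 1682 bp. With a threshold of 40, 17.1% of genes had a member, the median was 34.5 CpG, 53.8% were at high-CpG promoters and the width was 1872 bp. A reach of 500 bp gave a median distance of 138 bp, 8.46% at low-CpG promoters and 12.3% of genes. With starts of transcripts annotated as protein-coding only, 73.0% lay downstream, the median distance was 176 bp, 9.11% were at low-CpG promoters and 12.5% of genes had a member. With the outermost start of each gene only, 80.6% lay downstream, the distance was 246 bp, the median was 35 CpG, 45.5% were at high-CpG and 12.1% at low-CpG promoters, and 10.8% of genes had a member. Windows of 100 and 500 bp held medians of 14 and 55 CpG, and 68.0% of members had another center within 50 kb. Counted within 150 bp of the center, 9 of 14 motif shares fell below their interval, among them SP/KLF at 53.2% and TATA at 3.82%. No share of the 32 gene lists left its interval with a reach of 500 bp. The cause of these shifts was not tested. The order of members below strong peaks in median CpG and in the high-CpG share held for the strength thresholds of 20 and 40, the reach of 500 bp and the partner distance of 1000 bp. No paired analysis was possible because the replicates of each genotype were merged into 1 list before deposit, which is also why no replicate could be left out. The depth behind a strength is unknown, so a gene without a member is a gene without a called peak.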

Other observations

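In 143 genes, different starts carried a member and a strong peak. Where a gene had several of a kind the strongest was taken, and the paired centers lay a median of 54892 bp apart (lowest 1539 bp, quartiles 20047 and 128708 bp). The member had fewer CpG within 250 bp than the strong peak of its own gene in 83 genes (58.0%, 95% interval 49.5 to 66.2), more in 57 and the same number in 3, with medians of 27 CpG at members and 36 at strong peaks. The member was at a high-CpG promoter in 28.7% of these genes (21.4 to 36.8) and the strong peak in 58.7% (50.2 to 66.9). Both shares come from the same genes, so their intervals do not measure the difference between them. The member lay downstream of the strong peak along the gene in 75 of 143 genes (52.4%, 43.9 to 60.9). This comparison was added after the data were seen.

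The share of weak peaks among those at coding starts on 1 strand differed between autosomes. It was lowest on chromosome 12, with 77 members and 238 strong peaks (24.4%, 95% interval 19.8 to 29.6), and on chromosome 16 (26.7%), and highest on chromosome 17, with 148 and 184 (44.6%, 39.2 to 50.1), and chromosome 7 (40.9%). The share of coding genes with a member ranged from 9.99% on chromosome 7 to 15.0% on chromosome 18.

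The excess of G over C on the coding strand in the first 500 bp after the start, as (G-C)/(G+C), had a median of 0.0557 at members and 0.0655 at strong peaks, and was lower at members on 15 of 19 autosomes.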
